A study of Mus musculus with 12 samples.

Results

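The unfolded protein response of the endoplasmic reticulum (ER) was followed through 10 genes, Ern1, Atf6, Xbp1, Hspa5, Hsp90b1, Dnajb9, Calr, Pdia4, Pdia6 and Herpud1. They were taken as the rows of the deposited table that carry these names, and each name had 1 row among the 43686 rows. All 10 members passed the filter on low counts, which kept 17155 rows for testing. The RNA came from 12 samples of ventricular wall, 6 of WT mice (labelled wild type; Sdhaf4 fl/fl littermates in the paper) and 6 of KO mice (labelled Sdhaf4-/-; Sdhaf4 fl/fl with the Ckmm-Cre transgene in the paper), so that both groups carried the floxed allele. Each sample is called a heart below, although the labels do not say that each came from a separate mouse. The labels give the strain as C57BL/6 and the paper as C57BL/6J, whereas the identifiers and coordinates of the table are those of C57BL/6NJ. Sdhaf4 encodes an assembly factor of succinate dehydrogenase. Cre driven by the muscle creatine kinase promoter acts in heart and skeletal muscle, whereas the other cells of the ventricular wall are expected to keep the gene, so each library is a mixture of both. The labels give an age of 2 months, and the main text of the paper gives a younger age.

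Secreted and membrane proteins fold in the ER, and the sensors IRE1, ATF6 and PERK respond when unfolded proteins build up there. IRE1, encoded by Ern1, splices the Xbp1 mRNA, ATF6 is cut to release a transcription factor, and PERK slows translation and favours that of ATF4. The transcription factors made in this way are known to raise ER chaperones, disulfide isomerases and parts of ER-associated degradation, which returns misfolded proteins to the cytosol for destruction. In cardiomyocytes the ER is continuous with the sarcoplasmic reticulum, the calcium store of contraction. The counts are per gene, so spliced and unspliced Xbp1 mRNA were not separated, and cleavage of ATF6 and phosphorylation of the sensors are not RNA measurements.

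The response is known to act through short promoter elements, and those found in the members are shown because the members that hold them were compared below. RefSeq promoters (GRCm38.p6, from 250 bases before to 50 bases after the start of each gene) were found for 9 of the 10 members, all but Atf6. Both strands were searched for ERSE (CCAAT, any 9 bases, then CCACG), ERSE-II (ATTGG, any 1 base, then CCACG), the core of the XBP1 element UPRE (TGACGTG) and the composite C/EBP-ATF element (TGATGNAA). Capitals mark the element, with 10 bases on each side, 5′ to 3′ on the strand of the gene. A line may therefore show an element as its reverse complement, and no printed elements overlap.
Hspa5 ERSE, chr2:34772015-34772053, plus strand, -65 to -47 from the start: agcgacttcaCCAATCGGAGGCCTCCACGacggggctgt
Hspa5 UPRE core, chr2:34771923-34771949, plus strand, -157 to -151: ggcgtagcaaTGACGTGagttgcggag
Hsp90b1 upstream ERSE, chr10:86705628-86705666, minus strand, -212 to -194: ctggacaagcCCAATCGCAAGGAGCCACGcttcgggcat
Hsp90b1 downstream ERSE, chr10:86705523-86705561, minus strand, -107 to -89: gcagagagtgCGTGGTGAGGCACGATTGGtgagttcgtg
Calr ERSE, chr8:84847065-84847103, minus strand, -162 to -144: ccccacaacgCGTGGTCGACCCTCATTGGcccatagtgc
Pdia6 ERSE, chr12:17266481-17266519, plus strand, -98 to -80: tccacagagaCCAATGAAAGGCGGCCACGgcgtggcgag
Herpud1 ERSE-II, chr8:94386367-94386397, plus strand, -52 to -42: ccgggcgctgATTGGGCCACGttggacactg
Herpud1 C/EBP-ATF, chr8:94386307-94386334, plus strand, -112 to -105: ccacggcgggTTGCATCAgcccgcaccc
The ERSE was found in 4 of the 9 member promoters and in 39 (0.119%) of all 32851 promoters of the same length. The ERSE-II was found in 1 member promoter and in 12 (0.0365%) of all promoters. The UPRE core stood in 661 promoters (2.01%) and the C/EBP-ATF element in 1304 (3.97%), so these shorter elements are common. No element was found in the windows of Ern1, Xbp1, Dnajb9 and Pdia4. A match of letters is a description and does not show that a factor bound there.

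The KO hearts showed no common rise of the 10 members. Herpud1, a membrane protein that recruits the ER-associated degradation machinery, fell to 0.55 of its WT level, Pdia6 and Ern1 fell by less, and Hspa5 (BiP), the main ER chaperone, rose 1.15-fold. By edgeR's quasi-likelihood test at an adjusted p of 0.05, 1 member was higher and 3 were lower in KO, and 6 did not pass. Over all rows tested, 25.6% were higher and 25.5% were lower, so 1 of 10 members was below and 3 of 10 were near the background share. Among the 7018 rows with a mean of at least 20 CPM (counts scaled to a common library size with TMM), the level of all 10 members, 33.3% were higher and 30.6% were lower. The median log2 fold change of the members was -0.11, against 0.00 over all rows. A negative sign was found in 8 of 10 members, most of which did not pass the test, and in 8541 of the 17155 rows tested. The median size of the change, without sign, was 0.15 for the members, 0.30 for all rows and 0.24 for the rows with at least 20 CPM. The study's methods name an adjusted p of 0.05, used here, and a stricter pair of thresholds. No member passed the stricter pair (a log2 fold change beyond 1 in either direction with an adjusted p under 0.005), which 10.2% of all rows passed. The WT and KO libraries were fully apart for 1 member, Herpud1, against 30.1% of all rows and 41.4% of the rows with at least 20 CPM. The counts of higher and lower members were 1 and 3 also without KO replicate 3, the KO heart nearest to WT in Herpud1, and 1 and 4 without WT replicate 6, the lowest heart in Dnajb9.

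**Figure D1:**
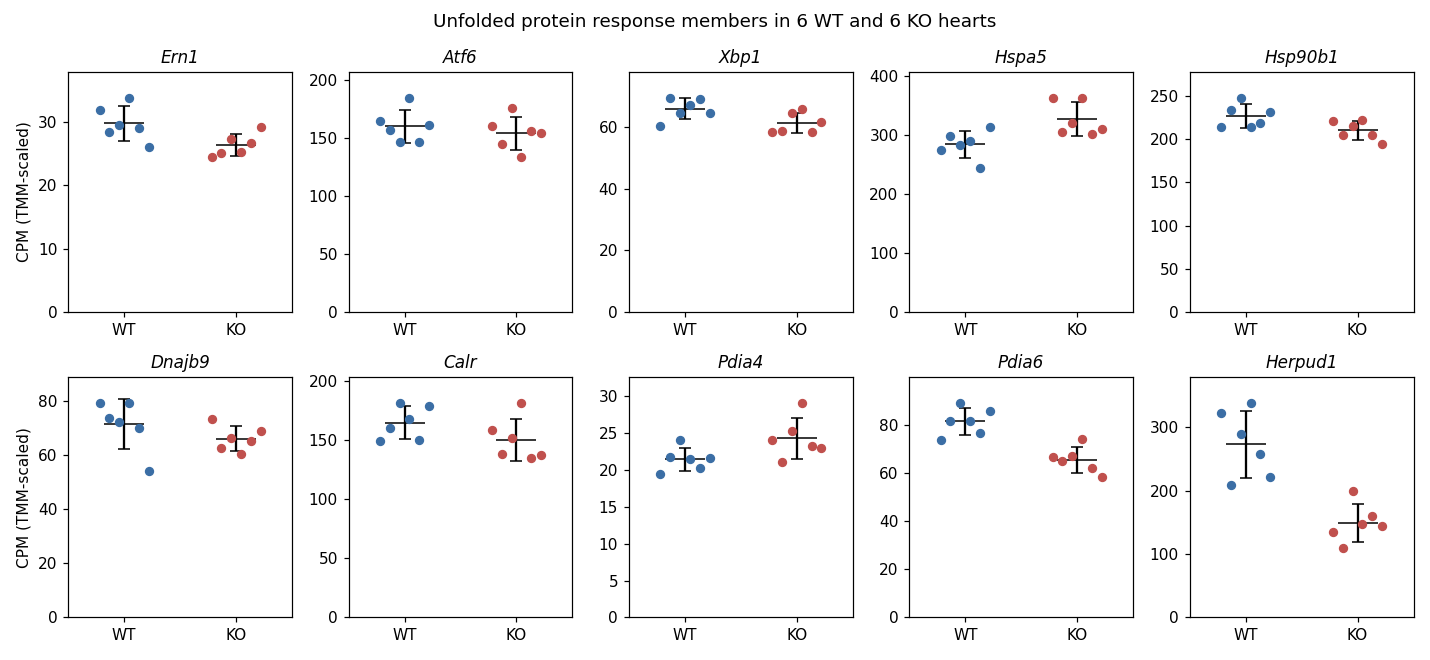
Level of each member in CPM (TMM-scaled counts, vertical axis from 0) in the 6 WT hearts (blue points) and 6 KO hearts (red points), in order of replicate number from left to right, with the mean (bar) and SD (whiskers) of each group. Herpud1 is the panel in which the groups do not overlap, with all KO hearts at or below 198.9 CPM and all WT hearts at or above 208.1 CPM.

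The library totals were 23747014 to 27159228 counts in WT and 26542930 to 31393393 in KO. The smallest count of a member in a library was 458, for Pdia4. The targeted gene, Sdhaf4, was at 25.2 ± 5.80 CPM in WT and at 2.40 ± 0.170 CPM in KO (SD, n = 6 in each group; log2 fold change -3.39, standard error 0.16, adjusted p = 1.95e-10 from edgeR). Of 8 fibroblast markers, all 8 were higher in KO, and their summed level was 1420 to 1670 CPM in WT and 2584 to 4867 CPM in KO. Of 10 cardiomyocyte markers, 2 were higher and 4 lower, with sums of 50320 to 55880 CPM in WT and 44190 to 61370 CPM in KO. Every marker of both lists was detected. Of 6 tested markers of B and plasma cells, which are rich in ER, 2 (Jchain and Sdc1) were higher, and the list summed to 8.51 to 14.1 CPM in WT and 12.5 to 17.8 CPM in KO. In bulk tissue, fewer cells of a type and less RNA per cell cannot be told apart. The part of the cell mixture in the results that follow was not tested.

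The sensors and transcription factors among the members were near their WT levels, and Ern1 was the one that passed the test. Ern1 (MGP_C57BL6NJ_G0019700, chromosome 11, 113041732 to 113159799 of the C57BL/6NJ assembly, minus strand) was at 25.99, 29.28 and 33.83 CPM (lowest, median and highest) in WT and at 24.51, 26.01 and 29.12 CPM in KO. All 6 KO hearts were below the WT median and 3 were below the lowest WT heart, so the groups overlapped. It fell by 11.5%, the means being 29.8 ± 2.73 CPM in WT and 26.3 ± 1.71 CPM in KO (SD, n = 6 hearts each), and its log2 fold change was -0.18 (standard error 0.07, 95% interval -0.32 to -0.03, adjusted p = 0.0381 from edgeR). This call was lost in a test against a log2 fold change of 0.2 (edgeR's glmTreat, adjusted p = 0.564) and without a filter on low counts (0.0564). It was also lost without WT replicate 1 or 4 or KO replicate 1, 2, 4 or 5, with edgeR's adjusted p between 0.0569 and 0.0838.

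Xbp1 and Atf6 did not pass the test. Xbp1 (MGP_C57BL6NJ_G0018394, chromosome 11, 2652542 to 2657804, plus strand), the mRNA that IRE1 splices, was at 60.4, 65.8 and 69.5 CPM in WT and at 58.4, 60.1 and 65.8 CPM in KO. The KO hearts were all below the WT median, but 3 of 6 were within the WT range. Mean levels were 65.8 ± 3.41 and 61.2 ± 3.31 CPM (SD, n = 6 hearts each), and its log2 fold change was -0.10 (standard error 0.05, 95% interval -0.21 to 0.00, adjusted p = 0.0919). Without WT replicate 1, the lowest WT heart, it passed (log2 fold change -0.14, adjusted p = 0.0361). Atf6 (MGP_C57BL6NJ_G0017135, chromosome 1, 182263895 to 182442256, minus strand), the sensor that is itself a transcription factor, was at 146.8, 159.5 and 185.2 CPM in WT and at 134.1, 155.6 and 176.2 CPM in KO. The ranges overlapped over most of their width, with 2 KO hearts above and 4 below the WT median. Its log2 fold change was -0.05 (standard error 0.07, adjusted p = 0.533), and the 95% interval of -0.20 to 0.09 bounds the difference.

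Among the ER chaperones, Hspa5 rose and the others had small negative differences. Hspa5 (MGP_C57BL6NJ_G0026058, chromosome 2, 34346327 to 34353321, plus strand), which also holds the sensors inactive when it binds them, was at 244.7, 286.9 and 314.4 CPM in WT and at 301.6, 316.2 and 363.7 CPM in KO. All 6 KO hearts were above the WT median and 3 were above the highest WT heart. KO replicates 1 and 4 stood at the top, the latter at 363.2 CPM, and WT replicate 5 at the bottom. The rise was 15.2%, the means being 284 ± 23.6 CPM in WT and 328 ± 28.6 CPM in KO (SD, n = 6 hearts each), and its log2 fold change was 0.20 (standard error 0.07, 95% interval 0.06 to 0.35, adjusted p = 0.0169 from edgeR). Without WT replicate 5 the log2 fold change was 0.16 and the call was lost (adjusted p = 0.0520), as it was in the test against 0.2 (0.408).

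Hsp90b1 (GRP94; MGP_C57BL6NJ_G0018011, chromosome 10, 90638209 to 90655281, minus strand), the ER member of the HSP90 family, was at 213.7, 225.1 and 247.9 CPM in WT and at 194.4, 210.1 and 222.0 CPM in KO. All 6 KO hearts were below the WT median and 3 were below the lowest WT heart. The log2 fold change was -0.11 (standard error 0.05, 95% interval -0.22 to 0.00, adjusted p = 0.0970). An unnamed row on the opposite strand shares 4598 bases with Hsp90b1 and held 4932 counts over the 12 libraries, 6.88% of the count of Hsp90b1. That row had a log2 fold change of -0.57 (adjusted p = 0.000145), and since no source states whether the counting used strand, reads of both rows may be mixed.

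Calr (MGP_C57BL6NJ_G0034369, chromosome 8, 89046694 to 89051778, minus strand), the calcium-binding lectin chaperone calreticulin, was at 149.1, 164.0 and 181.5 CPM in WT and at 135.2, 145.0 and 181.2 CPM in KO. KO replicate 4 was the KO heart at 181.2 CPM, and the other 5 KO hearts were below the WT median. The log2 fold change was -0.13 (standard error 0.07, adjusted p = 0.153), and without KO replicate 4 it passed the test (log2 fold change -0.19, adjusted p = 0.0228). Dnajb9 (ERdj4; MGP_C57BL6NJ_G0020099, chromosome 12, 44041413 to 44045584, minus strand), a co-chaperone of BiP, was at 54.0, 73.0 and 79.3 CPM in WT and at 60.4, 65.8 and 73.4 CPM in KO. The lowest of all 12 libraries was a WT heart, replicate 6, and 5 of 6 KO hearts were below the WT median. The log2 fold change was -0.11 (standard error 0.08, adjusted p = 0.264), and -0.18 without WT replicate 6 (adjusted p = 0.0156).

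The disulfide isomerases, which form and rearrange disulfide bonds of folding proteins, had opposite signs. Pdia6 (MGP_C57BL6NJ_G0020008, chromosome 12, 15174344 to 15192539, plus strand) was at 73.9, 81.6 and 89.1 CPM in WT and at 58.3, 65.8 and 74.3 CPM in KO. KO replicate 4 reached into the WT range and the other 5 KO hearts were below every WT heart. Pdia6 fell by 19.6%, the means being 81.4 ± 5.64 CPM in WT and 65.5 ± 5.40 CPM in KO (SD, n = 6 hearts each), and its log2 fold change was -0.31 (standard error 0.06, 95% interval -0.44 to -0.19, adjusted p = 0.00035 from edgeR). Pdia4 (ERp72; MGP_C57BL6NJ_G0031120, chromosome 6, 47721284 to 47738573, minus strand) was at 19.4, 21.5 and 24.0 CPM in WT and at 21.1, 23.6 and 29.1 CPM in KO. KO replicate 4 was the highest, and 5 of 6 KO hearts were above the WT median. The log2 fold change was 0.18 (standard error 0.08, adjusted p = 0.0601), and the 95% interval of 0.02 to 0.34, which is not adjusted for the number of rows, lay above 0. It passed without WT replicate 3 (log2 fold change 0.21, adjusted p = 0.0393), without KO replicate 2 (0.22 and 0.0276) and with a trend on gene length removed (0.20 and 0.0396).

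Herpud1 (MGP_C57BL6NJ_G0034456, chromosome 8, 99297839 to 99306760, plus strand) was at 208.1, 273.5 and 338.3 CPM in WT and at 109.5, 145.6 and 198.9 CPM in KO. Every KO heart was below every WT heart, with KO replicate 3 and WT replicate 2 the nearest to each other. It fell by 45.4%, the means being 273 ± 53.0 CPM in WT and 149 ± 29.7 CPM in KO (SD, n = 6 hearts each), and its log2 fold change was -0.87 (standard error 0.15, 95% interval -1.20 to -0.55, adjusted p = 0.000316 from edgeR). The spread within each group was the widest of the members, with coefficients of variation of 19.4% in WT and 19.9% in KO. Leaving out each library in turn gave log2 fold changes of -0.98 to -0.80, the first without KO replicate 3. A row on the opposite strand that shares 535 bases with Herpud1 held 89 counts in all, 0.132% of those of Herpud1.

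**Figure D2:**
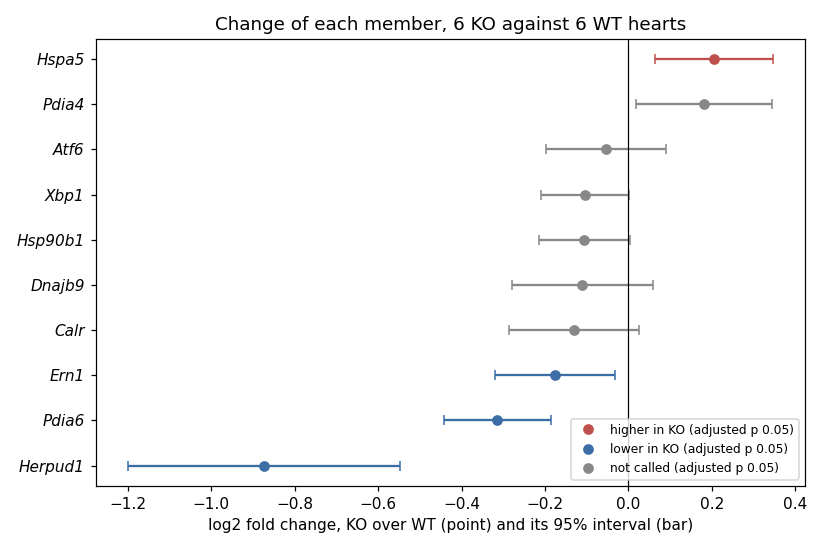
Log2 fold change of each member (KO over WT, horizontal axis; point) with its 95% interval (bar), coloured by the call at an adjusted p of 0.05. Herpud1 at -0.87 stands apart from the other 9 members, which lie between -0.31 (Pdia6) and 0.20 (Hspa5).

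Hspa5 and Herpud1, both known targets of the response, thus differed in opposite directions in the same libraries. The ratio of Herpud1 to Hspa5 in CPM was 0.698 to 1.17 in the WT hearts and 0.359 to 0.619 in the KO hearts. The 2 ranges did not overlap, as follows from the separation of Herpud1. The summed level of the 10 members was 1283 to 1479 CPM in WT and 1135 to 1314 CPM in KO. Without Herpud1 the sums were 1026 to 1141 CPM in WT and 1025 to 1155 CPM in KO, nearly the same range.

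Levels of different genes were compared per length, in the deposited FPKM. In WT hearts Herpud1 (232 ± 42.4 FPKM; SD, n = 6) and Hspa5 (200.5 ± 20.1) were the most abundant members and overlapped each other. Calr (139.9 ± 12.8) and Hsp90b1 (139.8 ± 9.44) followed and also overlapped. Pdia6 was at 69.8 ± 5.36 FPKM and Xbp1 at 51.5 ± 2.81 FPKM. Dnajb9 (38.2 ± 4.69) and Atf6 (34.3 ± 3.13) overlapped, and Pdia4 (15.6 ± 1.21) and Ern1 (10.95 ± 0.891) were lowest. In KO hearts Hspa5 was first, at 231 ± 24.1 FPKM, and Herpud1 came at 126.5 ± 23.2 FPKM, after Hsp90b1 (130.1 ± 8.87) and Calr (128.0 ± 17.1). The KO ranges of these last 3 overlapped. The order of the other members, from Pdia6 down to Ern1, was the same in both groups.

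Within a group, the hearts with the highest and lowest values differed between members. KO replicate 4 was the highest KO heart in CPM for 5 members (Xbp1, Hsp90b1, Calr, Pdia4 and Pdia6) and the lowest for Atf6 and Dnajb9, and this was so in FPKM too. WT replicate 4 was the highest WT heart for Ern1, Atf6 and Herpud1 on both scales. Other positions depended on the scale. In CPM, WT replicate 3 was the highest WT heart for Hsp90b1, Calr, Pdia4 and Pdia6, whereas in the deposited FPKM, which are not TMM-scaled, WT replicate 6 was the highest for Calr and Pdia6. Hspa5 was highest in KO replicate 1 in CPM and in KO replicate 4 in FPKM. This is a description of 12 libraries and was not tested.

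**Figure D3:**
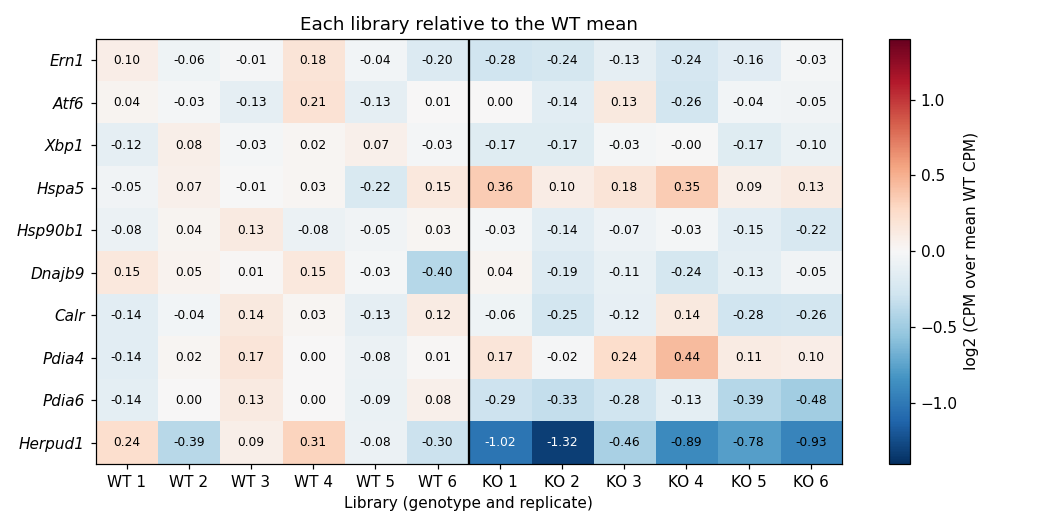
Log2 of the CPM of each member over its WT mean (colour and printed value) in each of the 12 libraries, in order of genotype and replicate. Herpud1 is below its WT mean in all 6 KO hearts and Hspa5 above it in all 6, and Xbp1, Hsp90b1, Calr, Pdia4 and Pdia6 have their highest KO values in replicate 4.

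Other genes of the pathway were read from 6 lists, in which 83 genes were tested. These lists were chosen with earlier results of these data known, so their shares are a description and not a test. More of the 83 genes were higher (37, or 44.6%) than lower (13, or 15.7%) in KO, with 33 not called and a median log2 fold change of 0.12. The background over all rows was again 25.6% higher and 25.5% lower, and it was 33.3% and 30.6% among the rows with at least 20 CPM. In either direction, 60.2% of the pathway genes were called, against 51.1% of all rows and 63.9% of the rows with at least 20 CPM. The groups did not overlap in 29 genes (34.9%), against 30.1% of all rows and 41.4% of the rows with at least 20 CPM. The rise of all 8 fibroblast markers stood beside these counts. Of 6 endothelial markers 3 were higher and 1 was lower. Of 6 smooth muscle and pericyte markers 2 were higher and 1 was lower. Of 8 macrophage markers 1 was higher and 2 were lower. The part of any of these cell types in the pathway counts was not tested.

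In the PERK and ATF4 arm, 4 of 9 genes were higher and none was lower, with a median log2 fold change of 0.28. The background for this list and each list below was 25.6% higher and 25.5% lower over all rows. It was 33.3% and 30.6% among the rows with at least 20 CPM, and no single list was tested against it. Nupr1, a small stress-induced chromatin protein, rose from 6.06 ± 1.00 to 25.1 ± 4.84 CPM (log2 fold change 2.05, standard error 0.13, adjusted p = 3.08e-09 from edgeR). Ddit3, which encodes the transcription factor CHOP, was at 11.8 to 19.6 CPM in WT and at 26.7 to 33.2 CPM in KO. This was a 1.93-fold rise with no overlap of the groups (log2 fold change 0.95, standard error 0.10, adjusted p = 9.39e-07). Atf4, whose translation PERK and related kinases favour, was at 74.7 to 91.4 CPM in WT and at 103.0 to 117.2 CPM in KO (log2 fold change 0.32, standard error 0.05, adjusted p = 0.000121). Ppp1r15a (GADD34), which returns translation to its usual rate, rose by 0.28 on the log2 scale (adjusted p = 0.0101). Chac1 and Trib3, also known ATF4 targets, had log2 fold changes of 0.19 (adjusted p = 0.680) and 0.37 (0.0718). Trib3 passed without KO replicate 1, and Chac1 changed sign without KO replicate 3. ATF4 also serves stress kinases outside the ER, and this list does not tell them apart.

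Among the other sensors, membrane-bound factors and their proteases, 4 of 7 were higher and 1 was lower. Eif2ak3, which encodes PERK, was at 11.1 to 16.3 CPM in WT and at 16.3 to 20.1 CPM in KO. The groups met without overlap, and the log2 fold change was 0.37 (standard error 0.09, adjusted p = 0.00206), whereas that of Ern1 was -0.18 and that of Atf6 -0.05. Creb3l2 and Creb3, ATF6-like factors, had log2 fold changes of 0.97 (adjusted p = 6.29e-08) and 0.54 (5.88e-07). Of the proteases that cut ATF6, Mbtps1 (site-1 protease) rose by 0.16 and Mbtps2 (site-2 protease) fell by 0.20 on the log2 scale (adjusted p = 0.00760 and 0.0314). The call of Mbtps2 was lost in 8 of 26 alternative settings, among them without WT replicate 2 or 5 or KO replicate 2, 3, 4 or 6.

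The further chaperones and folding factors were divided, with 4 of 14 higher and 5 lower and a median log2 fold change of -0.05. The call of Dnajb11, counted as higher (log2 fold change 0.14, adjusted p = 0.0474), was lost in 18 of 26 alternative settings. Canx, the membrane-bound lectin chaperone related to calreticulin, fell from 272 ± 10.8 to 210.4 ± 8.46 CPM with no overlap of the groups (log2 fold change -0.37, standard error 0.05, adjusted p = 3.76e-06). Hyou1, the nucleotide exchange factor of BiP, Cnpy2 and Fkbp2 fell as well, by 0.20 to 0.49 on the log2 scale. Hspa13 and Ppib, a prolyl isomerase that acts on collagen among other proteins, had log2 fold changes of 0.42 (adjusted p = 0.000152) and 0.35 (0.000641). Manf was at 29.0 CPM in both groups (log2 fold change 0.00, adjusted p = 0.989).

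In disulfide exchange and oxidation, 7 of 14 genes were higher and 2 were lower. Qsox1, a sulfhydryl oxidase, was at 41.4 to 57.5 CPM in WT and at 118.1 to 154.6 CPM in KO (log2 fold change 1.36, standard error 0.08, adjusted p = 1.43e-09). Txndc5 had a log2 fold change of 0.76 (adjusted p = 9.17e-08). P4hb, the classical disulfide isomerase and a subunit of collagen prolyl hydroxylase, had one of 0.46 (adjusted p = 7.96e-07). Pdia3 rose by 0.27 (adjusted p = 0.000643), so isomerases of the same family included genes that rose (P4hb, Pdia3) and one that fell (Pdia6). The oxidase paralogs also had opposite signs, with log2 fold changes of 0.53 for Ero1l (adjusted p = 0.000121) and -0.45 for Ero1lb (0.0220), whose call was lost without WT replicate 3 or 4 or KO replicate 2.

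In ER-associated degradation, 10 of 19 tested genes were higher and 4 were lower, while Derl3 had too few counts for a test. The call of Derl1, counted as higher (log2 fold change 0.12, adjusted p = 0.0471), was lost in 20 of 26 alternative settings. Sel1l, the partner of the ubiquitin ligase HRD1, was at 76.5 to 91.4 CPM in WT and at 106.2 to 113.8 CPM in KO (log2 fold change 0.41, standard error 0.05, adjusted p = 2.1e-06). Edem1 and Edem3, which trim mannose from misfolded glycoproteins, had log2 fold changes of 0.45 (adjusted p = 0.000197) and 0.37 (9.56e-06). Herpud2, the paralog of Herpud1, fell from 63.8 ± 5.58 to 45.6 ± 2.94 CPM with no overlap of the groups (log2 fold change -0.48, standard error 0.06, adjusted p = 5.28e-06). The other 3 that fell were Derl2 (-0.28), Edem2 (-0.26) and Vimp (-0.26). Syvn1, which encodes HRD1, the ligase that Herpud1 binds, did not pass (log2 fold change 0.04, adjusted p = 0.620).

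In the translocon, signal peptidase and early secretory list, 8 of 20 genes were higher and 1 was lower. Kdelr3, a receptor that returns escaped chaperones to the ER, rose from 5.17 ± 0.691 to 10.4 ± 2.53 CPM (log2 fold change 1.01, standard error 0.15, adjusted p = 3.14e-05), while Kdelr1 and Kdelr2 did not pass (0.05 and 0.10). Sec24d and Sec23b, coat proteins of vesicles leaving the ER, had log2 fold changes of 0.69 (adjusted p = 2.39e-07) and 0.66 (2.07e-06). Sec61g, a small translocon subunit, fell by 0.34 (adjusted p = 0.00629). Some named genes overlap a row on the opposite strand, and reads of the shared bases may be mixed. For Creb3 these are Tln1, which shares 360 bases, held 646% of the count of Creb3 and had itself a log2 fold change of 0.70 (adjusted p = 4.05e-08), and Gba2 (133 bases, 83.3%). Kdelr3 shares 33 bases with Ddx17, which held 2810% of its count, and Ddit3 shares 68 bases with Mars, which held 204%. Ppib shares 1454 bases with Snx22 (12.1%), and unnamed rows overlap Eif2ak3 (2448 bases, 2.62%) and Qsox1 (235 bases, 1.11%).

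**Figure D4:**
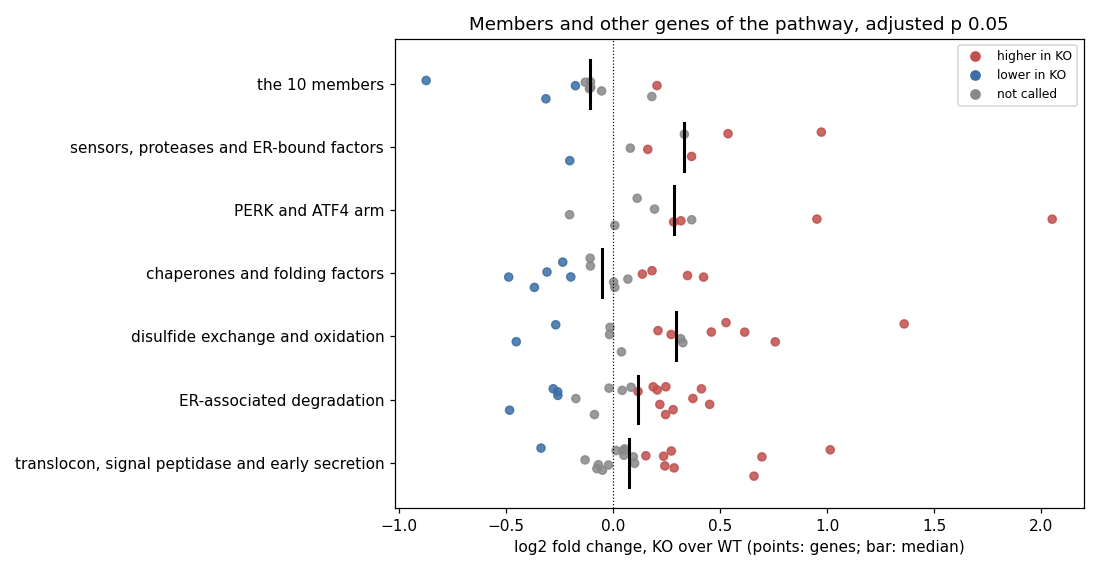
Log2 fold change (KO over WT, horizontal axis) of the 10 members and of the tested genes of the 6 other lists; each point is a gene, coloured by its call at an adjusted p of 0.05, and each black bar is a median. The members centre at -0.11 and the PERK and ATF4 list at 0.28, and Herpud1 at -0.87 is the lowest point of all lists.

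The members that hold the same promoter element did not share a direction. Of the 4 with an ERSE, Hspa5 rose, Pdia6 fell, and Hsp90b1 and Calr had log2 fold changes of -0.11 and -0.13 that did not pass. Over all 37 genes with an ERSE in this window, 16 were tested, of which 2 were higher, 6 were lower and 8 did not pass, with a median log2 fold change of -0.11. Leaving out WT replicate 5 gave 1 higher gene, and leaving out KO replicate 3 gave 4. Without the members the counts were 1 higher, 5 lower and 6 not called, of 12, and Canx was among the lower ones. For the ERSE-II, printed above for Herpud1, 8 genes were tested, of which 3 were lower and 2 higher, or 1 higher in most alternative settings. Over all rows tested, 25.6% were higher and 25.5% lower, which is the background for these small counts. At 20 CPM or more, the shares were 33.3% and 30.6%. The elements were chosen after the values had been seen, and no enrichment was tested.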

How the data were processed

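Poly-A mRNA of 12 ventricular walls was sequenced. The submitters' processing notes name HISAT2 2.0.5 and mm10, whereas the row identifiers belong to the C57BL/6NJ assembly; which was used for mapping was not settled. The authors counted reads per gene with HTSeq and deposited raw counts; strand handling is not given in the sources used here. The authors also deposited FPKM per library. Columns of group means and of the authors' fold changes and p-values were not used.

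Counts were tested with edgeR 4.0.16 (R 4.3.3): filterByExpr, TMM, robust quasi-likelihood test of genotype, Benjamini-Hochberg adjustment over 17155 rows. CPM are counts scaled to a common library size with TMM, and every p in the report comes from this test unless named otherwise. The 2590 unannotated loci stayed in the fit; the 55 described as mitochondrial held 8.21% to 11.1% of counts. No pair of replicates was alike within counting error (chi-square of 7.47 to 54.6 per degree of freedom). The labels do not say that replicates were separate mice, so p-values measure the spread between these samples. On simulated counts of 17042 genes, the test called 46 of 50 genes set to -0.5 and 47 of 50 set to 0.5 (log2), with 14 false calls. Every simulated gene had the same dispersion, and the changed genes had a mean over 50 counts. The spread of the real genes differed, so these numbers do not give the rate of calls in the data.

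Alternatives used limma 3.58.1, DESeq2 1.42.0, other scalings and filters, and each library left out in turn. The members and lists were chosen with earlier results of these data known. Genes named were all members, Sdhaf4, the 3 smallest p-values of each of 6 pathway lists, Eif2ak3, Atf4, Ddit3 and rows overlapping a member; other genes were named after their values were seen. Promoters came from RefSeq. Of the older symbols, Ero1l, Ero1lb and Vimp stand for Ero1a, Ero1b and Selenos.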

Additional observations from a re-analysis of the deposited data

Results flagged for a closer look

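In groups of 6 hearts, a library was marked when its gap to the nearest other heart exceeded the share of the range set by Dixon's 95% critical value. Chance marks about 1 in 20 groups, which is 2.9 of the 58 groups examined, and 3 were found. Dnajb9 was at 54.0 CPM in WT replicate 6, below the other WT hearts at 69.9 to 79.3 CPM. For Nupr1, WT replicate 5 had 7.93 CPM and the other WT hearts 5.10 to 6.13 CPM. For Sdhaf4, KO replicate 1 had 2.73 CPM and the other KO hearts 2.25 to 2.42 CPM.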

How the results depend on the processing

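No member or pathway gene named by the stated rule reversed its direction in the 26 alternative settings. Of all 83 pathway genes, 0 of the 50 called and 11 of the 33 not called changed sign in at least 1 setting. All 8 fibroblast markers were higher in each setting. Herpud1 and Pdia6 passed in 14 of 14 other settings and without each of the 12 libraries in turn. With the stricter thresholds of the study's methods (a log2 fold change beyond 1 in either direction with an adjusted p under 0.005), 919 rows were higher and 836 lower, no member was higher (0) or lower (0), and of the pathway genes 3 were higher and 0 lower. Against a log2 fold change of 0.2 (edgeR's glmTreat), 0 members were higher and 2 lower (Herpud1 and Pdia6), and 19 pathway genes were higher and 3 lower. Removing a trend on gene length gave 2 higher members, adding Pdia4. Leaving out 1 library gave 0 to 2 higher and 2 to 4 lower members, 35 to 37 higher pathway genes and 11 to 13 lower ones. The replicate numbers did not pair the hearts (correlations of -0.195 to 0.0426 between same-numbered deviations, and only numbers 2 and 3 matched themselves best). With the replicate number as a block, 1 member was higher and 2 lower (Ern1 had an adjusted p of 0.0892), and 35 pathway genes were higher and 13 lower. Changes below 0.5 were not simulated, so for the 6 members that did not pass, a difference of the size of their intervals cannot be told from none at this depth and number of hearts.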
